A study of Mus musculus with 6 samples.

Results

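The genes that build, lengthen and desaturate fatty acids were followed in cultured mouse small-intestinal organoids, epithelial structures with crypt-like and villus-like parts. The 10 genes were taken by symbol from the table of read counts per gene: Acly, Acaca, Fasn, Scd1, Scd2, Elovl1, Elovl5, Elovl6, Fads1 and Fads2. All 10 were found among the 24594 rows, and all 10 passed the filter on low counts, which kept 12592 rows. Single cells had been cultured for 96 h and then exposed for 24 h either to NIBR-LTSi at 5 uM (3 libraries) or to a matched quantity of its solvent DMSO (3 libraries). NIBR-LTSi blocks the LATS kinases of the Hippo pathway, which restrain the co-activators YAP and TAZ. Neither the strain and age of the donor animals nor the origin of the replicates (separate cultures or not) is given in the sources used here. The p-values therefore reflect the spread among these libraries, which may be technical only.

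Fatty acid synthesis starts from cytosolic citrate, which ATP citrate lyase (Acly) splits to acetyl-CoA. Acetyl-CoA carboxylase (Acaca) turns acetyl-CoA into malonyl-CoA, and fatty acid synthase (Fasn) joins these units into palmitate. Elongases of the ELOVL family lengthen the chain, and desaturases insert double bonds: the SCD enzymes make palmitoleate and oleate, while FADS2 and FADS1 act in turn on the essential fatty acids, with ELOVL5 acting between them. In the small intestine these lipids feed membranes of dividing crypt cells and the triglyceride and phospholipid of enterocytes, and transcription factors of the SREBP, ChREBP and LXR families are known to control the genes.

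With NIBR-LTSi, 8 of the 10 genes rose, none fell, and 2 (Scd2 and Fads2) were not called. Over all tested genes 42% were called, 22.8% higher and 19.2% lower (edgeR quasi-likelihood test, adjusted p under 0.05). This balance moved with the scaling and the tool, with 27.2% higher and 15.3% lower with library totals only, and 15.5% and 15.9% in DESeq2. The median log2 fold change was 0.32 over the 10 genes and 0.02 over all 12592 tested genes. Elovl5 rose 1.91-fold and the 7 others that rose changed by 1.12-fold to 1.30-fold, so most of these rises were small. In all 10 genes every NIBR-LTSi library lay above every DMSO library in CPM (counts scaled to a common library size), as it did in 28% of tested genes. Without DMSO replicate 1 the test called 5 genes higher instead of 8, losing Acaca, Fasn and Elovl6, in a fit that called 17.9% of all genes higher.

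**Figure D1:**
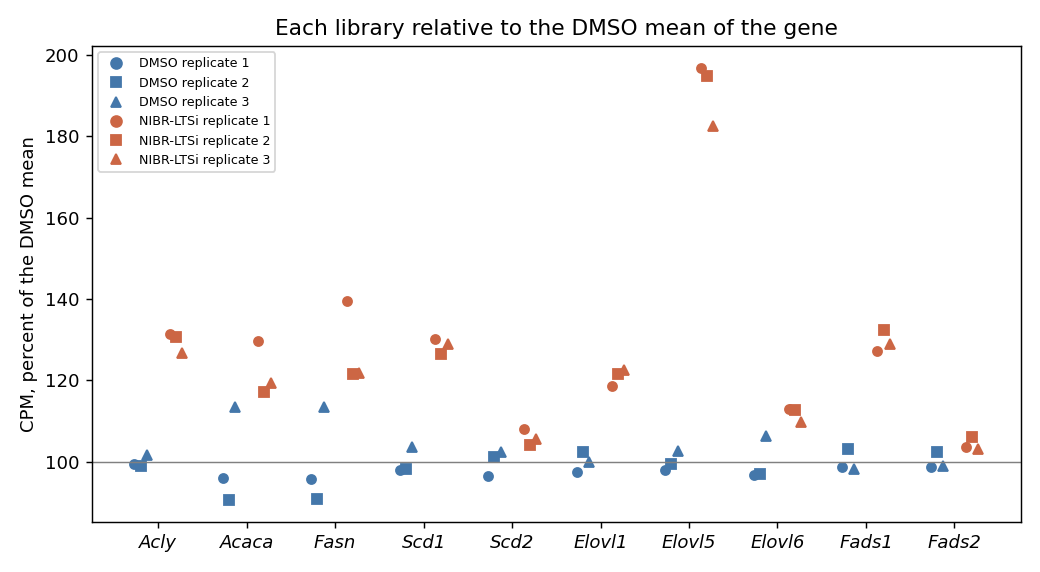
CPM in each library as a percent of the DMSO mean of the gene (y axis), for the 10 genes (x axis); blue marks are DMSO and orange marks NIBR-LTSi, with 1 marker shape per replicate number. Elovl5 stands apart from the other 9 genes, and the Scd2 and Fads2 points of the 2 groups lie close together.

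Total counts ranged from 18395427 to 26767043 per library, and markers of small-intestinal epithelium were present: all 16 on the list were tested, and their summed level was 12100 to 12300 CPM with DMSO and 11800 to 12700 with NIBR-LTSi. Of these, 4 rose (Krt8, Krt18, Krt19 and Hnf4a) and 6 fell (Vil1, Cdx1, Fabp2, Lgr5, Lyz1 and Chga), 62.5% called against 42% of all tested genes. The largest fall was in Fabp2, from 2182 to 1114 CPM, and Krt20 was not called. Fibroblast and smooth muscle markers summed to 9.17 to 11 CPM with DMSO and 7.38 to 7.94 with NIBR-LTSi (12 genes, Dcn, Lum and Des at 0), leukocyte markers to 10.4 to 10.8 and 11.6 to 12.3 (12 genes, with Cd3e, Cd3g and Cd8a among those at 0), and endothelial and nerve markers to 1.52 to 1.75 and 1.17 to 1.80 (10 genes, Cdh5, Kdr and Sox10 at 0). Most of the fibroblast and smooth muscle sum was Vim, at 6.695 CPM with DMSO and 5.08 with NIBR-LTSi (called lower). Most of the leukocyte sum was Itgam, at 7.88 and 9.14 CPM (not called). Hepatocyte markers summed to 15.6 to 16.3 and 6.14 to 6.97 CPM (10 genes, Ahsg, Cyp7a1 and Fgb at 0), and most of this drop was in Ttr, which fell from 10.7 to 2.06 CPM, while Alb was at 0.993 and 1.41 CPM and was not called. Adipocyte markers, which include lipid genes that other cells also use, summed to 149 to 153 and 148 to 157 CPM; Lep, Retn and Cfd were at 0 and Adipoq was at 0.0157 CPM with DMSO. In bulk libraries fewer cells of a type and less RNA per cell cannot be told apart, and the part that shifts among epithelial cell types have in the values below was not tested.

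Levels were compared between genes per length, as RPKM, the CPM divided by the deposited gene width in kilobases. With DMSO the order was Scd2 (504 ± 15.3 RPKM, mean ± SD, n = 3), Scd1 (242 ± 7.7), Fads2 (97.7 ± 2.0), Elovl1 (46.9 ± 1.1), Fasn (42.7 ± 5.1), Elovl6 (35.0 ± 1.9), Acly (33.5 ± 0.5), Fads1 (19.2 ± 0.5), Elovl5 (12.3 ± 0.3) and Acaca (4.30 ± 0.52). Scd2 was at rank 85 and Scd1 at rank 199 of 12592 tested genes by this level, so both stearoyl-CoA desaturases were among the most abundant transcripts, while Acaca was at rank 7234. Elovl1 and Fasn overlapped in their DMSO libraries, as did Elovl6 and Acly, and the other neighbours in the order did not overlap. With NIBR-LTSi Elovl1 (56.8 ± 0.9 RPKM) and Fasn (54.5 ± 4.4) still overlapped, whereas Acly (43.4 ± 0.9) lay above Elovl6 (39.1 ± 0.6) in every library. Elovl5 reached 23.6 ± 1.0 RPKM, just under Fads1 at 24.9 ± 0.5.

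**Figure D2:**
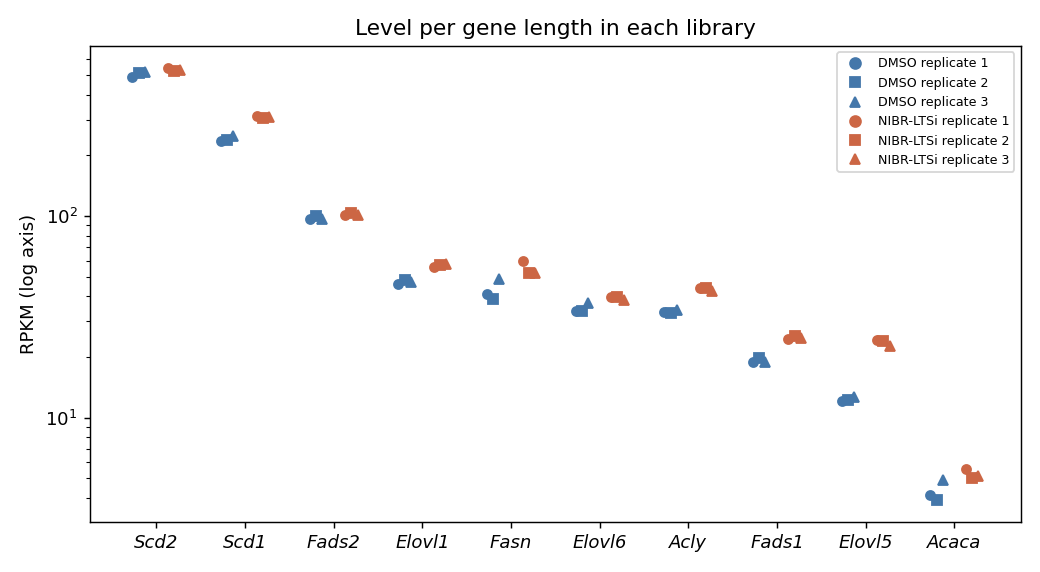
Level per gene length (RPKM, log axis) of the 10 genes in each of the 6 libraries, ordered by the DMSO mean; blue marks are DMSO and orange marks NIBR-LTSi. The genes span from Acaca at 4.30 to Scd2 at 504 RPKM with DMSO, and Elovl5 moves most between the groups.

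Acly (Entrez 104112; chromosome 11, 100476352 to 100528000, minus strand, GRCm38.p6) supplies cytosolic acetyl-CoA. It was at 175.5, 175.0 and 179.6 CPM in the DMSO libraries (replicates 1 to 3, here and below) and at 232, 231 and 224 CPM in the NIBR-LTSi libraries (likewise). All 3 treated libraries were higher, with a gap far wider than the spread inside either group (log2 fold change 0.37 ± 0.04 (SE), adjusted p = 7.22e-06).

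Acaca (Entrez 107476; chromosome 11, 84129635 to 84401651, plus strand) encodes the carboxylase that commits acetyl-CoA to synthesis. It was at 58.2, 54.9 and 68.8 CPM with DMSO and at 78.5, 70.9 and 72.4 CPM with NIBR-LTSi. DMSO replicate 3 was the highest control and lay close to NIBR-LTSi replicate 2. The log2 fold change was 0.28 ± 0.08 (adjusted p = 0.0187), and the call ended on leaving out DMSO replicate 1 (adjusted p = 0.0795), DMSO replicate 2 (0.0580), NIBR-LTSi replicate 1 (0.0592) or NIBR-LTSi replicate 3 (0.0609). With an offset for gene width the log2 fold change was 0.17 (adjusted p = 0.00757). Of the 17201 distinct 50-base stretches in its annotated transcripts, 30.4% also occur in transcripts of other genes, nearly all in Gm5182, which was not analysed here, so its count is less certain than the others. Acacb, the mitochondrial-membrane form of the enzyme, was at a low level of 0.691 ± 0.044 and 0.591 ± 0.166 CPM and was not called.

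Fasn (Entrez 14104; chromosome 11, 120805958 to 120825166, minus strand) was at 448, 424 and 530.2 CPM with DMSO and at 652, 568 and 569.6 CPM with NIBR-LTSi. As in Acaca, the highest control was DMSO replicate 3 and the highest treated library NIBR-LTSi replicate 1. The coefficient of variation among the DMSO libraries was 11.9% for Fasn and 12.0% for Acaca, against 1.43% for Acly and a median of 6.12% over all tested genes. The log2 fold change of 0.35 ± 0.10 passed the threshold narrowly (adjusted p = 0.0406). Leaving out DMSO replicate 1 (adjusted p = 0.108), DMSO replicate 2 (0.104), NIBR-LTSi replicate 1 (0.0894), NIBR-LTSi replicate 2 (0.0717) or NIBR-LTSi replicate 3 (0.0911) ended the call, as did testing with no filter on low counts (0.0933).

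The stearoyl-CoA desaturases differed from each other. Scd1 (Entrez 20249; chromosome 19, 44394450 to 44407709, minus strand) was at 1158, 1162 and 1225 CPM with DMSO and at 1538, 1494 and 1524 CPM with NIBR-LTSi. It rose by 0.36 ± 0.03 on the log2 scale (adjusted p = 5.90e-06), and the lowest treated library was well above the highest control. Scd2 (Entrez 20250; chromosome 19, 44293676 to 44306864, plus strand), the more abundant of the pair, was at 2661, 2788 and 2819 CPM with DMSO and at 2981, 2871 and 2912 CPM with NIBR-LTSi. Its groups did not overlap, but the gap was small beside the spread among controls (log2 fold change 0.08 ± 0.03, adjusted p = 0.0682). Scd2 was called higher with upper-quartile factors (adjusted p = 0.0440) and with no filter on low counts (0.0463). It was also called with library totals only (log2 fold change 0.13, adjusted p = 0.00391), a scaling that raised the median gene by 0.045 on the log2 scale, about as much as it raised Scd2.

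Both desaturase genes lie in the same cluster, with 87585 bases between them. Only 4.56% of the 50-base stretches of Scd1 transcripts and 3.97% of those of Scd2 occur in transcripts of another gene, mainly of the same family. Scd2 made up 67.3%, 68.2% and 67.3% of the summed Scd1 and Scd2 RPKM with DMSO and 63.4%, 63.2% and 63.1% with NIBR-LTSi. The share was thus lower in every treated library, by 4.36 percentage points (exact permutation test, two-sided, p = 0.1, the smallest that 3 against 3 allows; 0.133 adjusted over 4 ratios).

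Elovl1 (Entrez 54325; chromosome 4, 118426874 to 118432953, plus strand) makes very long saturated and monounsaturated chains used in sphingolipids. It was at 124.9, 131 and 128 CPM with DMSO and at 152, 156 and 157 CPM with NIBR-LTSi (adjusted p = 1.47e-04 for a log2 fold change of 0.28 ± 0.04), with no overlap between tight groups. The gene shares 53 exonic bases with Cdc20, a mitotic activator on the opposite strand that was at 37.4 ± 1.9 CPM with DMSO and 65.2 ± 1.7 with NIBR-LTSi. The sources used here do not say whether the counting used strand, and the part of Cdc20 reads in the Elovl1 value was not tested.

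Elovl5 (Entrez 68801; chromosome 9, 77917365 to 77984519, plus strand), the elongase of polyunsaturated chains, changed most. It was at 42.6, 43.2 and 44.5 CPM in the 3 DMSO libraries and at 85.5, 84.6 and 79.3 CPM in the 3 NIBR-LTSi libraries. The treated libraries stood far above the controls (log2 fold change 0.94 ± 0.05, adjusted p = 4.24e-08), and across 15 alternative analyses the log2 fold change stayed between 0.91 and 0.98. Of all tested genes, 3.4% had a larger rise. Elovl6 (Entrez 170439; chromosome 3, 129532386 to 129638495, plus strand), which lengthens palmitate to stearate, was at 217, 218 and 239 CPM with DMSO and at 254, 254 and 247 CPM with NIBR-LTSi. DMSO replicate 3 came close to the treated libraries (log2 fold change 0.16 ± 0.04, adjusted p = 0.0107), and the call was lost without DMSO replicate 1 (0.0672) or NIBR-LTSi replicate 2 (0.0764). It shares 3.98% of its 50-base stretches with transcripts of other genes, mainly Gm11295, and 34 exonic bases with the antisense gene Gm35986.

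The RPKM of Elovl6 was 2.83 times that of Elovl5 with DMSO and 1.66 times with NIBR-LTSi. On the log2 scale this ratio was 1.48, 1.47 and 1.56 in the DMSO libraries and 0.701, 0.714 and 0.770 in the NIBR-LTSi libraries. The groups were separated by many times their spread (difference -0.773; exact permutation test, two-sided, p = 0.1, the smallest possible; adjusted p = 0.133).

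Fads1 (Entrez 76267; chromosome 19, 10182877 to 10196874, plus strand), which makes arachidonate and eicosapentaenoate, was at 91.2, 95.3 and 90.8 CPM with DMSO and at 118, 122 and 119 CPM with NIBR-LTSi. Every treated library was higher (log2 fold change 0.37 ± 0.04, adjusted p = 2.21e-05). Fads2 (Entrez 56473; chromosome 19, 10062765 to 10101503, minus strand), which introduces the earlier double bond in that route, was at 317, 329 and 319 CPM with DMSO and at 333, 342 and 332 CPM with NIBR-LTSi. DMSO replicate 2 came within a few CPM of the treated libraries, and the difference did not pass the test (log2 fold change 0.06 ± 0.03, adjusted p = 0.185). It passed with library totals only (0.11, adjusted p = 0.0225), where the median gene moved up by the same 0.045.

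The log2 ratio of Fads2 to Fads1 in RPKM was 2.34, 2.33 and 2.36 with DMSO and 2.05, 2.03 and 2.02 with NIBR-LTSi, lower in every treated library (difference -0.312; exact permutation test, two-sided, p = 0.1, the smallest possible; adjusted p = 0.133). The ratio of Scd1 to Fasn, by contrast, was 2.53, 2.62 and 2.37 with DMSO and 2.40, 2.56 and 2.58 with NIBR-LTSi on the same scale. These groups overlapped fully, and the means differed by 0.00673 (exact permutation p = 1, adjusted p = 1), with a sign that turned without DMSO replicate 3 (-0.0613), NIBR-LTSi replicate 2 (-0.0157) or NIBR-LTSi replicate 3 (-0.0278).

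**Figure D3:**
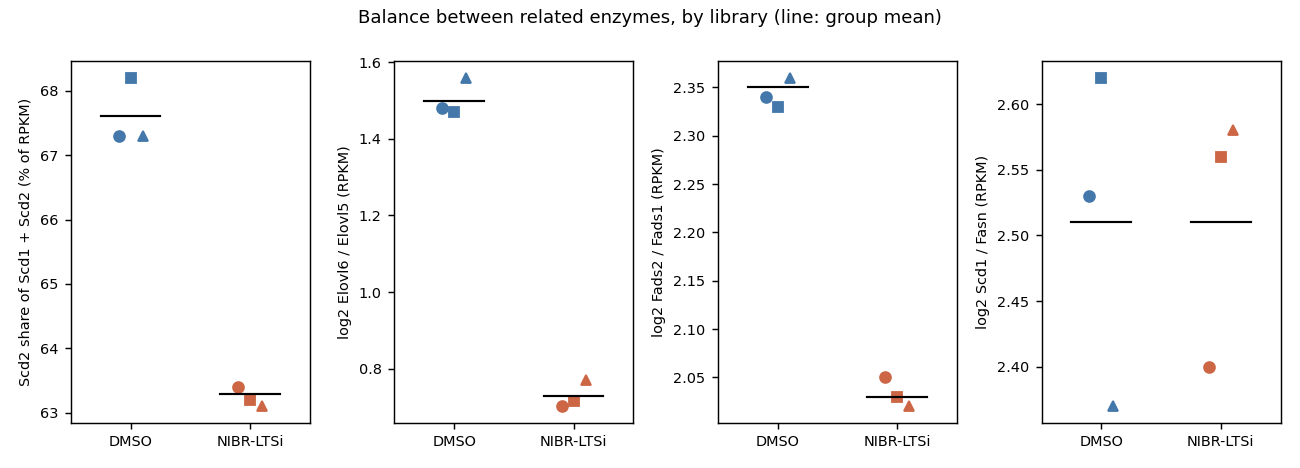
Ratios between related enzymes in each library: the Scd2 share of summed Scd1 and Scd2 RPKM in percent, and the log2 RPKM ratios of Elovl6 to Elovl5, Fads2 to Fads1 and Scd1 to Fasn (y axes, which do not start at 0), by group (x axes; circles, squares and triangles are replicates 1, 2 and 3, lines are means). The first 3 ratios were lower in every NIBR-LTSi library, and the Scd1 to Fasn ratio overlapped between groups.

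Summed over the 10 genes the level was 5293, 5421 and 5644 CPM with DMSO and 6425, 6193 and 6236 CPM with NIBR-LTSi, from 0.529% to 0.564% and from 0.619% to 0.642% of all normalised counts. Scd1 and Scd2 made up most of this sum in every library.

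**Figure D4:**
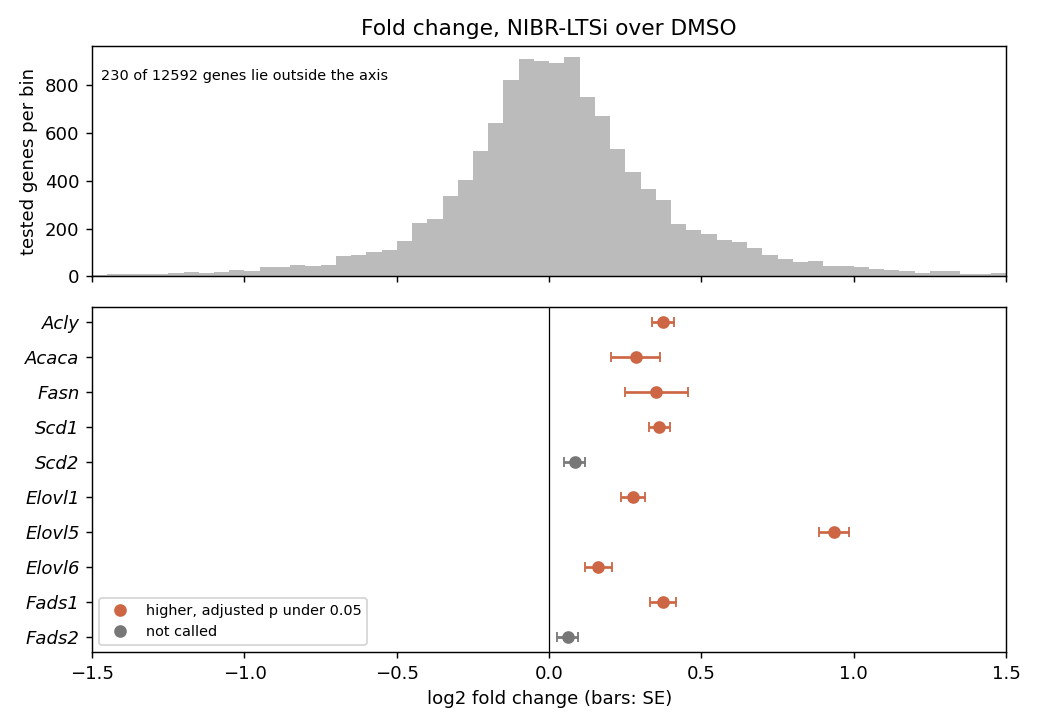
Log2 fold change of NIBR-LTSi over DMSO (x axis, both panels): the upper panel counts tested genes per bin of fold change, and the lower panel gives the 10 genes with their SE, orange where called higher and grey where not called. All 10 points lie to the right of 0, from 0.06 for Fads2 to 0.94 for Elovl5.

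Promoter sequences were read for the genes with an entry in the RefSeq promoter table (GRCm38.p6), which were 7 of 10; Scd1, Scd2 and Fads1 had none. The 250 bases before the start are shown for Elovl5, which changed most, for Fasn, which gives its name to the synthase step, and for Acly, whose rise was among the steadiest. Capitals mark an E-box (CACGTG, bound by factors that include the ChREBP and SREBP families) and CCAAT boxes (CCAAT or its reverse complement ATTGG, bound by NF-Y, a known partner of SREBP); both strands were searched, and a CCAAT and an ATTGG overlap in Fasn. The starts listed in that table for Fasn, Acaca and Elovl1 (both entries) lie inside the spans RefSeq gives for these genes, and which starts the organoids use was not measured.
Elovl5, chr9:77917115-77917364, plus strand: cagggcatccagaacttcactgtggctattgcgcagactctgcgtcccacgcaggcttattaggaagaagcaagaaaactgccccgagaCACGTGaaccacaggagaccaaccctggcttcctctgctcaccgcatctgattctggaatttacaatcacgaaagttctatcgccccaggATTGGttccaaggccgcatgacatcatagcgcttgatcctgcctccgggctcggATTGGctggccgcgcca
Fasn, chr11:120824548-120824797, minus strand: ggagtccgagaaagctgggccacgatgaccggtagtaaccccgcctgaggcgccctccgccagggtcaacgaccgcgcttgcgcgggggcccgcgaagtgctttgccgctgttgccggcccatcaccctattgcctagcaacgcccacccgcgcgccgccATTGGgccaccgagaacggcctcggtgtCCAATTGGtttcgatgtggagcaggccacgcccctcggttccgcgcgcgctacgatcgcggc
Acly, chr11:100528001-100528250, minus strand: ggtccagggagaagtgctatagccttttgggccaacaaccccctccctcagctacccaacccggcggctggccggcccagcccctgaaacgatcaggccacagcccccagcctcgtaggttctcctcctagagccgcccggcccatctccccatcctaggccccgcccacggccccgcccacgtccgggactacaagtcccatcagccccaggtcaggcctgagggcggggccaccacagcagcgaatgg
Elovl5 held 1 E-box, 161 bases before the start, and 2 CCAAT boxes. Fasn held 3 CCAAT boxes and Acly no match, and of the remaining 4 genes only Elovl1 had a match, 1 CCAAT box in 1 of its 2 listed promoters. A CCAAT box thus occurred in 3 of the 8 promoters listed for the 7 genes, against 33.8% of all 32851 promoters of that length, and an E-box in 1 of 8 against 6.02%. No copy of a sterol-response motif (TCACNCCAC, 1.05% of all promoters) or of the TEAD motif (GGAATG, 12.6%) was found in these 8 windows, which says only that those letters are absent there.

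Among the regulators of these genes more fell than rose. Of 15 tested SREBP, ChREBP and LXR regulators, 3 rose and 8 fell (73.3% called, against 42% of all tested genes). The list median was -0.18 on the log2 scale, and 1 rose without DMSO replicate 1 or NIBR-LTSi replicate 2. Activators and genes that restrain SREBP, such as Insig1, are mixed in this list, so its counts and median give no direction of control. Srebf1, the SREBP gene tied to fatty acid synthesis, fell from 291 ± 3.8 to 238 ± 6.7 CPM (adjusted p = 5.70e-05 for a log2 fold change of -0.29 ± 0.04), whereas Srebf2, tied to cholesterol synthesis, rose from 370.1 ± 12.8 to 457 ± 6.5 CPM (0.30 ± 0.04, adjusted p = 3.78e-05). Insig1, which holds SREBP in the endoplasmic reticulum and is itself an SREBP target, fell from 962 ± 7.2 to 739 ± 1.7 CPM. Nr1h3, which encodes LXR-alpha and is a known activator of Srebf1, fell 1.41-fold, and its dimer partner Rxra 1.22-fold. Mlxipl, which encodes ChREBP, was at 489.7 ± 57.5 and 370.0 ± 79.3 CPM (adjusted p = 0.196 for a log2 fold change of -0.40 ± 0.20; 0.0434 in limma-voom), and its log2 fold change was -0.24 without NIBR-LTSi replicate 1.

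Among 15 genes that supply acetyl-CoA, malonyl-CoA or NADPH, 6 rose and 6 fell (80% called, against 42% of all tested genes). The acetyl-CoA synthetases Acss2 (cytosolic and nuclear) and Acss1 (mitochondrial) rose 1.32-fold and 1.29-fold, and the pyruvate dehydrogenase subunit Pdha1 rose 1.25-fold. Malonyl-CoA decarboxylase, Mlycd, which breaks down the product of Acaca, fell from 53.4 ± 1.3 to 40.9 ± 1.1 CPM (adjusted p = 6.41e-05 for a log2 fold change of -0.39 ± 0.05). Over the list the median was -0.08 on the log2 scale.

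The other elongation and desaturation genes moved both ways: of 15 tested, 4 rose and 6 fell (66.7% called, against 42% of all tested genes). The list median was -0.08 on the log2 scale (2 rose in DESeq2, and also 2 on leaving out any of DMSO replicates 1 and 3 and NIBR-LTSi replicate 2). Cyb5r3 and Cyb5a, a reductase and a cytochrome b5 that pass electrons to desaturases such as the SCD enzymes, fell from 1199 ± 30.1 to 802 ± 5.3 CPM and from 557.5 ± 25.2 to 401 ± 11.3 CPM (log2 fold changes -0.58 ± 0.03 and -0.47 ± 0.04, adjusted p = 8.57e-08 and 2.53e-06). The sphingolipid desaturases Degs1 and Degs2 fell 1.325-fold and 1.31-fold. Elovl3 and Elovl4 had no count in any library.

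In the mitochondrial fatty acid synthesis and lipoylation list, 2 of 9 tested genes rose and 1 fell. Called were 33.3% of the list, under the 42% of all tested genes, and the list median was 0.07 on the log2 scale. The acyl carrier protein gene Ndufab1 fell 1.14-fold (adjusted p = 0.00987). Aasdhppt, which activates acyl carrier proteins, rose 1.19-fold (adjusted p = 0.0242); this ended without DMSO replicate 1 (0.123), NIBR-LTSi replicate 2 (0.0659) or NIBR-LTSi replicate 3 (0.0825) and in DESeq2 (0.115). The lipoyl transferase Lipt2 rose 1.44-fold (adjusted p = 0.0446), and this call was lost in DESeq2 (0.151) and when any library but DMSO replicate 3 was left out (adjusted p = 0.0816 without DMSO replicate 1, 0.121 without DMSO replicate 2, and 0.0546, 0.120 and 0.115 without NIBR-LTSi replicates 1, 2 and 3). Without NIBR-LTSi replicate 1 the reductase gene Cbr4 (log2 fold change -0.20 ± 0.09, adjusted p = 0.101) was called lower as well (0.0477), which made 2 lower.

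Of 12 acyl-CoA synthetases, binding proteins and thioesterases, 2 rose and 6 fell (66.7% called, against 42% of all tested genes). The list median was -0.16 on the log2 scale. Acsl4, which prefers arachidonate, rose from 19.5 ± 0.8 to 32.4 ± 2.1 CPM (adjusted p = 4.39e-06 for a log2 fold change of 0.74 ± 0.07). The thioesterase gene Acot1 fell 2.72-fold and its close relative Acot2 1.52-fold. The counting could have split reads between them, which was not tested. Dbi, the acyl-CoA binding protein, fell 1.29-fold from 1421 ± 104 CPM.

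Of 24 tested genes of glycerolipid and phospholipid synthesis, 7 were higher and 7 lower (58.3% called, against 42% of all tested genes). The median log2 fold change was -0.06. This even split did not hold in every setting. DESeq2 called 3 genes higher and 8 lower. Without DMSO replicate 1 the counts were 3 higher and 7 lower, and without NIBR-LTSi replicate 2 or 3 they were 4 and 6. The lysophospholipid acyltransferase Mboat1 rose from 12.6 ± 1.0 to 47.3 ± 1.0 CPM (adjusted p = 1.84e-09 for a log2 fold change of 1.91 ± 0.07). Pcyt1a, the rate-limiting enzyme of phosphatidylcholine synthesis, rose from 119.9 ± 6.3 to 234 ± 4.9 CPM. Mogat2, which rebuilds triglyceride from absorbed monoglyceride in enterocytes, fell from 462.5 ± 11.7 to 279.9 ± 10.1 CPM, and the glycerol-phosphate acyltransferase Gpat3 fell 1.34-fold.

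Among 11 genes of AMPK and of the TRIB and COP1 proteins, 3 rose and 2 fell (1 without DMSO replicate 1). Some of these proteins inactivate or degrade acetyl-CoA carboxylase, an effect that was not measured here. Called were 45.5% of the list, near the 42% of all tested genes, and the list median was -0.03 on the log2 scale. The AMPK catalytic subunit Prkaa2 rose 1.35-fold and the ubiquitin ligase Cop1 1.15-fold. The pseudokinase gene Trib1 fell from 199 ± 3.8 to 138 ± 3.9 CPM (adjusted p = 8.56e-07 for a log2 fold change of -0.52 ± 0.04), and Trib3 fell 1.185-fold (adjusted p = 0.00940; 0.0518 without DMSO replicate 1).

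**Figure D5:**
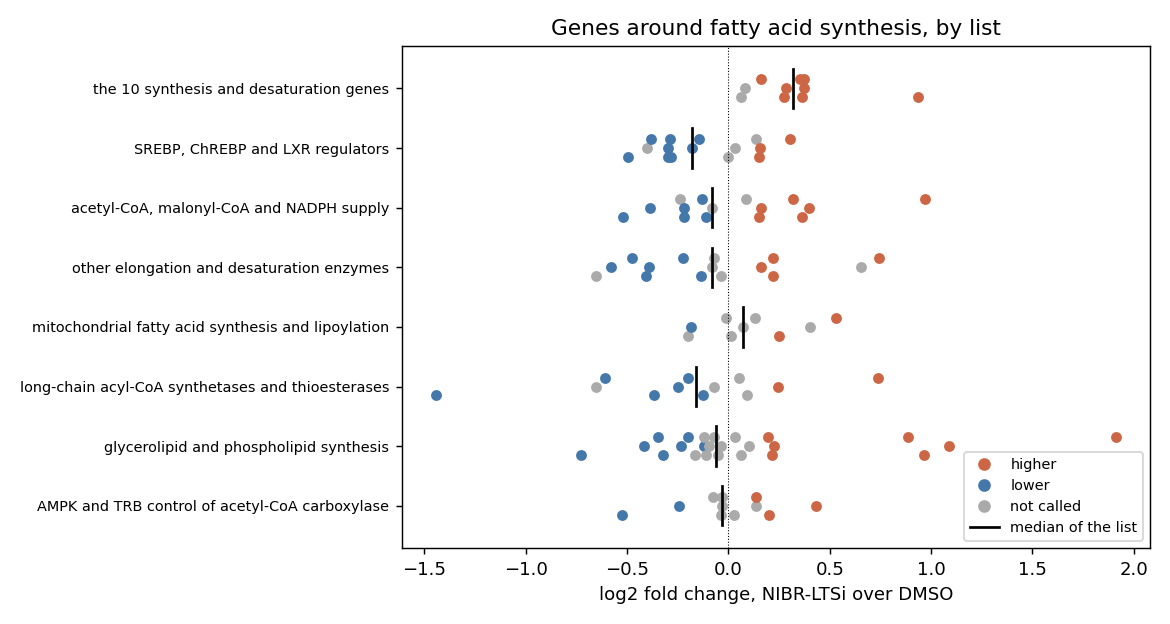
Log2 fold change of NIBR-LTSi over DMSO (x axis) for each tested gene of the 10 and of the 7 surrounding lists (y axis), coloured by the call, with a black bar at the list's median. The 10 genes have a median of 0.32 and none to the left of 0. The regulators, which mix activators with restraining genes, have a median of -0.18 and 8 of 15 called lower, against 19.2% of all tested genes.

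The genes most like Elovl5, the gene with the smallest p of the 10, were found by the root mean square difference of centred log2 CPM over the 6 libraries. They were Hlcs, which attaches biotin to carboxylases (0.0233), the spindle protein gene Haus8 (0.0420), the laminin chain gene Lamb3 (0.0440), Pcyt1a (0.0454) and the polarity gene Pard6b (0.0454). Their log2 fold changes lay between 0.94 and 0.99, near that of Elovl5 because the search selects for this.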

How the data were processed

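RNA was taken from organoids brought to single cells, and a stranded mRNA library was made from 200 ng of it, per the labels' protocols. The authors deposited 1 table of raw read counts per gene with a gene width, and per the submitters' processing notes the build was mm10 and edgeR was used. The sources used here do not name the aligner, the counter or the strand setting.

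Counts of the 6 libraries were filtered with filterByExpr (12592 of 24594 rows kept; 15 rows without a symbol stayed in), scaled with TMM factors and tested with the edgeR quasi-likelihood F-test (edgeR 4.0.16, R 4.3.3, robust, two-sided, group as the only term), with Benjamini-Hochberg adjustment over all tested genes at 0.05. The SE was back-calculated as |log2 fold change| over the root of F and is approximate. CPM uses the TMM-scaled library sizes, RPKM also the deposited width. The common dispersion was 0.00363, a coefficient of variation of 6.02% between replicates. No pair of libraries agreed within sampling noise (chi-square per degree of freedom from 4.46 to 11.3). The scripts were tested on simulated data.

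The 10 genes and the lists were chosen with earlier results of these data known; lists are described by counts and medians, with no set test. Named from 7 lists were the 4 smallest p-values of each, plus Srebf1, Srebf2, Insig1 and Mlxipl. Overlapping or sequence-sharing genes were named for that property, and the genes most like Elovl5 by the likeness search. The epithelial markers that were called, Krt20, Acacb, Vim, Itgam, Ttr, Alb and the genes at 0 were named after their values were seen. The likeness search took genes with a mean of at least 5 CPM and left out numbered gene models. The alternatives were limma-voom (limma 3.58.1), DESeq2 (1.42.0), 3 other scalings, 2 other filters, a replicate block, an offset for gene width and leaving out each library. Positions come from RefSeq GRCm38.p6, the assembly of mm10, and strands, overlaps and transcripts from GENCODE on the same assembly.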

Additional observations from a re-analysis of the deposited data

How the results depend on the processing

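All 10 genes stayed above 0 in the 15 alternatives. Acly, Scd1, Elovl1, Elovl5 and Fads1 kept their calls in all 15, Fasn in 8, Acaca in 11 and Elovl6 in 13. Leave-one-out log2 fold changes ran from 0.22 to 0.38 for Acaca, 0.28 to 0.45 for Fasn and 0.14 to 0.21 for Elovl6, and 5 to 8 members were called higher. Over all 15 alternatives the lowest values were 0.17 for Acaca, 0.26 for Fasn and 0.13 for Elovl6. Fasn was 0.36 with no low-count filter (adjusted p = 0.0933). Scd2 passed with upper-quartile factors (log2 fold change 0.09), library totals only (0.13) and no low-count filter (0.09), and Fads2 with library totals only (0.11). In DESeq2, 2 other elongation and desaturation genes, 0 mitochondrial synthesis genes and 3 glycerolipid genes were called higher. When each library was left out in turn, the number called higher ran from 1 to 3 for regulators, 2 to 3 for other elongation and desaturation genes, 0 to 2 for mitochondrial synthesis genes and 3 to 7 for glycerolipid genes; the number called lower ran from 1 to 2 for mitochondrial synthesis and AMPK genes. The ratio of Scd1 to Fasn differed between groups by -0.0613 to 0.0637 in the leave-one-out values, with the sign turned in 3 (-0.0613, -0.0157 and -0.0278).

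The replicate numbers did not pair the libraries: deviations of same-numbered libraries correlated by 0.0482, -0.296 and 0.562 over 12592 genes. With the replicate block, 4945 genes were called instead of 5287, Fasn was at 0.36 (adjusted p = 0.0573), Lipt2 was at 0.54 (adjusted p = 0.0509), and 1 mitochondrial synthesis gene was called higher. The causes were not tested. The number of libraries per group limits the exact permutation tests of the ratios, whose smallest possible p is 0.1.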

Other observations

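The minor desaturase gene Scd4, in the same cluster as Scd1 and Scd2, was at 4.69, 5.22 and 14.97 CPM in DMSO replicates 1 to 3 and at 5.73, 5.16 and 4.97 CPM in NIBR-LTSi replicates 1 to 3, so DMSO replicate 3 stood apart from the other 5 libraries. That library was also the highest control for Acly, Acaca, Fasn, Scd1, Scd2, Elovl5 and Elovl6. Pparg, a regulator of lipid storage genes counted here among the adipocyte markers, rose from 36.7 to 61.8 CPM, while the lipase gene Lipe of the same list fell from 86.6 to 64.7 CPM. Hacd1, a dehydratase of the elongation cycle, rose from 4.59 to 7.68 CPM, and Hsd17b12, the ketoacyl-CoA reductase of that cycle, from 175 to 204 CPM. The genes in this paragraph were chosen after their values were seen.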
